A study of Homo sapiens with 9 samples.

Results

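The genes described here carry the symbols of proteins of the mitochondrial ribosome, the machine that makes protein inside mitochondria. They were chosen by name: every row of the expression table whose symbol is MRPL or MRPS followed by a number, with or without a final letter A to C. This gave 78 of 60564 rows, 49 named MRPL for the large subunit and 29 named MRPS for the small subunit, and all 78 passed the filter on low values that left 12747 genes to test. By structure MRPS18A and MRPS30 belong to the large subunit, and MRPS36 is not counted as a ribosome subunit. The study sequenced total RNA from BxPC3, an established human line of pancreatic ductal adenocarcinoma cells grown in medium with fetal bovine serum. It held 3 groups of 3 libraries labelled as biological replicates: BxPC3 cells given vehicle, BxPC3 cells transfected with siRNA against STAT3, and BxPC3 cells treated with WB436B at 0.1 µM. The series title sets WB436B beside siRNA towards STAT3, so the comparisons ask how removing the transcription factor's mRNA and giving the compound each changed the transcriptome. The labels name no transfection with a control siRNA and no treatment time, so an effect of transfection and an effect of less STAT3 cannot be told apart here. All cells came from 1 line, so p-values reflect variation among its cultures as labelled, not among tumours.

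The mitochondrial ribosome has a large subunit, which joins amino acids, and a small subunit, which reads the mRNA. Its RNA comes from mitochondrial DNA, whereas its proteins are encoded in the nucleus, made in the cytosol and imported. It translates the few mRNAs of the mitochondrial genome, all for subunits of the respiratory chain and the ATP synthase, and many of its proteins have counterparts in bacteria while others occur only in mitochondria.

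STAT3 itself, the target of the siRNA, measured 16.4, 15.8 and 15.1 FPKM with vehicle, 2.98, 2.58 and 3.02 FPKM after STAT3 siRNA and 10.5, 10.9 and 10.8 FPKM under WB436B, with values always listed for replicates 1 to 3. FPKM are fragment counts scaled to transcript length and library size. STAT3 was lower than vehicle in all 3 libraries of both treatments, with log2 fold changes of -2.12 ± 0.057 (SE, adjusted p = 1e-07) after siRNA and -0.52 ± 0.057 (SE, adjusted p = 6.5e-05) under WB436B. Depth, estimated from the steps of the lowest FPKM values, was 47200000 fragments in vehicle replicate 1 and between 14900000 and 20400000 in the other libraries. The 7 ductal epithelial markers summed to 1100 to 1270 FPKM per library, but single markers moved in opposite directions. With vehicle and under WB436B, KRT19 measured 732.3, 684.6 and 713.6 against 331.7, 322.5 and 347 FPKM. KRT7 measured 264.4, 255.5 and 232.2 against 474.4, 405.9 and 428.9 FPKM. MUC1 measured 8.123, 8.274 and 8.154 FPKM with vehicle, 1.499, 1.901 and 1.516 FPKM after STAT3 siRNA and 2.075, 1.639 and 1.685 FPKM under WB436B. KRT8 measured 90.6, 88.72 and 102.6 FPKM with vehicle, 177.1, 190.5 and 171.6 FPKM after STAT3 siRNA and 148.2, 108.1 and 115.7 FPKM under WB436B. The 14 markers of acinar, islet, fibroblast, endothelial and immune cells summed to 3.59 to 8.20 FPKM. Of these, 4 were at 0 and 12 below 1 FPKM in every library, while CD68 reached 5.12 and COL1A1 2.40 FPKM.

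The start regions of 5 genes are printed because these genes show the different responses described below. They run from 170 bases before to 30 bases after the RefSeq transcription start on assembly GRCh38.p14, so they cover the proximal promoter and the first bases of the first exon. MRPS18A lies at chr6:43687762-43687961 on the minus strand, MRPL58 at chr17:75012500-75012699 on the plus strand, MRPL51 at chr12:6493233-6493432 on the minus strand, MRPS23 at chr17:57850015-57850214 on the minus strand and MRPL44 at chr2:223957293-223957492 on the plus strand. Sequences read 5′ to 3′ along each gene's own strand. Capitals mark CCGGAAG, the core bound by ETS factors such as GABPA, on either strand (CTTCCGG on the opposite one), and AAGATGG, the core bound by YY1.
MRPS18A: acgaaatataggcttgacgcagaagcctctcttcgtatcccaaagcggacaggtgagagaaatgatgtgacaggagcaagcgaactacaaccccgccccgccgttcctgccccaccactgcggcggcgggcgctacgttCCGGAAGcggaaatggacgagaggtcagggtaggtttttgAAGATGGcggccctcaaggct
MRPL58: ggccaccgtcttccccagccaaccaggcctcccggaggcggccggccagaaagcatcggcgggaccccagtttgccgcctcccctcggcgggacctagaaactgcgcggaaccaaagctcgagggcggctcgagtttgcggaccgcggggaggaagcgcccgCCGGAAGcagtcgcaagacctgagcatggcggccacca
MRPL51: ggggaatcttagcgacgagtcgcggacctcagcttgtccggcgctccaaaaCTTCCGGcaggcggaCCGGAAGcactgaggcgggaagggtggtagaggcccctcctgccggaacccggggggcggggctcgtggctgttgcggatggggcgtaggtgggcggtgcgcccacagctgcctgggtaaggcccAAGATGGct
MRPS23: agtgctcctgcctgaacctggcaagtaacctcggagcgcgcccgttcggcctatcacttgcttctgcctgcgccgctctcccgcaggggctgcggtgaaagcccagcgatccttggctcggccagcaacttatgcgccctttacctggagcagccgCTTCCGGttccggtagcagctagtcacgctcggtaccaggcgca
MRPL44: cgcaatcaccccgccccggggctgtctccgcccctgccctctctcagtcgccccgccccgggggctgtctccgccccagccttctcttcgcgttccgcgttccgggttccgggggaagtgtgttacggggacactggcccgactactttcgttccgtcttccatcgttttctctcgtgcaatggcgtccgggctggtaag
MRPS18A had 1 ETS core at position -31, counted from the start site, and a YY1 core at position 10. MRPL51 carried ETS cores at -119 and -104 and a YY1 core at 22, MRPS23 an ETS core at -14, and MRPL58 one at -8. The MRPL44 stretch held neither core.

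RefSeq promoter windows of 300 bases, from 250 before to 50 after the start, were matched for 69 of the 78 genes. The other 9 were MRPL2, MRPL10, MRPL13, MRPL15, MRPL21, MRPL23, MRPL35, MRPS28 and MRPS36. CCGGAAG was present on either strand in 30 of the 69 (43.5%), against 16.5% of 15843 promoters of coding genes and 12.2% of all 27305 promoters in the table. AAGATGG was present in 24 of the 69 (34.8%), against 7.90% of coding promoters and 7.11% of all promoters. The E-box CACGTG, a site of MYC and related factors, occurred in 9 (13.0%), against 10.9% and 8.77%. The NRF1-like core GCATGCG occurred in 7 (10.1%), against 6.07% and 4.74%, and CCAAT, the NF-Y box, in 23 (33.3%), against 42.1% and 39.7%. CCGGAAG and AAGATGG can share the letters AAG where they adjoin. A gene was counted if any of its windows held the letters, and some genes, such as MRPL18, had several windows. Shares counted per gene can therefore exceed shares counted per promoter. A match is a run of letters, not a measured binding site.

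Fold changes of the genes with and without each core were set side by side. Genes with CCGGAAG had a median log2 fold change of 0.27 after siRNA and 0.31 under WB436B, and those without it 0.38 and 0.34. For AAGATGG the medians were 0.29 and 0.38 with the core and 0.35 and 0.30 without it. The 9 genes with CACGTG had a median of 0.35 after siRNA and 0.55 under WB436B, against 0.31 and 0.31 for the genes without it. For CCAAT the medians were 0.42 and 0.42 with it and 0.30 and 0.32 without it, and for GCATGCG, in 7 genes, 0.28 and 0.42 with it and 0.32 and 0.33 without it. These medians are descriptions with no test.

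In vehicle-treated cells the levels spanned a wide range. MRPL51, a large-subunit protein found only in mitochondria, was highest at 54.6 ± 3.02 FPKM (SD, n = 3), followed by MRPL12, the factor-binding stalk protein, at 44.95 ± 4.397 FPKM and MRPS34, a mitochondria-specific small-subunit protein, at 40.8 ± 8.46 FPKM. FPKM are per length, so levels of different genes can be set side by side. The MRPL51 libraries (52.3, 53.4 and 58.02 FPKM) lay above all MRPL12 libraries (43.8, 41.3 and 49.8 FPKM), while MRPL12 and MRPS34 (38.2, 50.3 and 34.01 FPKM) overlapped. The lowest were MRPL42 at 1.403 ± 0.176 FPKM, MRPL46 at 2.46 ± 0.212 FPKM and MRPS23 at 3.43 ± 0.152 FPKM, with no overlap between these 3. In GENCODE release 29 the exons of MRPL51, MRPL12 and MRPS34 covered 1551, 1028 and 1097 bases. Those of MRPL42, MRPL46 and MRPS23 covered 16393, 6432 and 6379 bases. Level and annotated length were not told apart.

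After STAT3 siRNA, 47 of the 78 genes rose and 1 fell (limma on log2(FPKM + 1), Benjamini-Hochberg adjusted p below 0.05 over all 12747 genes). That is 60.3% of the genes higher, where 29.8% of all tested genes rose and 22.3% fell. The median log2 fold change was 0.30 over the 78 genes and 0.06 over all tested genes. In 49 of the genes all 3 siRNA libraries lay above all 3 vehicle libraries and in 2 all lay below, against 35.1% and 25.3% of all tested genes. Without vehicle replicate 1, the deepest library, the count was 36 higher and 4 lower. The share of all tested genes called without that library is not given, so this drop has no background.

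Under WB436B, 47 of the 78 genes rose and 2 fell, while across all tested genes 24.9% rose and 41.1% fell. The median was 0.33 over the 78 genes and -0.13 over all tested genes. All 3 WB436B libraries lay above all 3 vehicle libraries in 46 of the genes and below in 3, against 26.8% and 43.3% of all tested genes. Without vehicle replicate 1 the count was 40 higher and 3 lower, again with no share of all tested genes to set beside it. Both comparisons use the same vehicle libraries, so they are not independent of each other. The libraries are bulk RNA, and a change in the mix of cell states and a change in RNA per cell cannot be told apart.

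Because abundant genes are called more readily, the counts were also read against genes of at least 5 FPKM in at least 3 libraries. Of the 72 mitochondrial ribosomal protein genes that passed, 46 rose after siRNA (63.9%, against 33.8% of 7042 genes) and 46 rose under WB436B (63.9%, against 34.8%). Summed over all 78 genes, the level was 953, 1007 and 1067 FPKM with vehicle, 1286, 1291 and 1347 FPKM after siRNA, and 1447, 1350 and 1324 FPKM under WB436B. Every treated library was above every vehicle library in this sum.

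**Figure D1:**
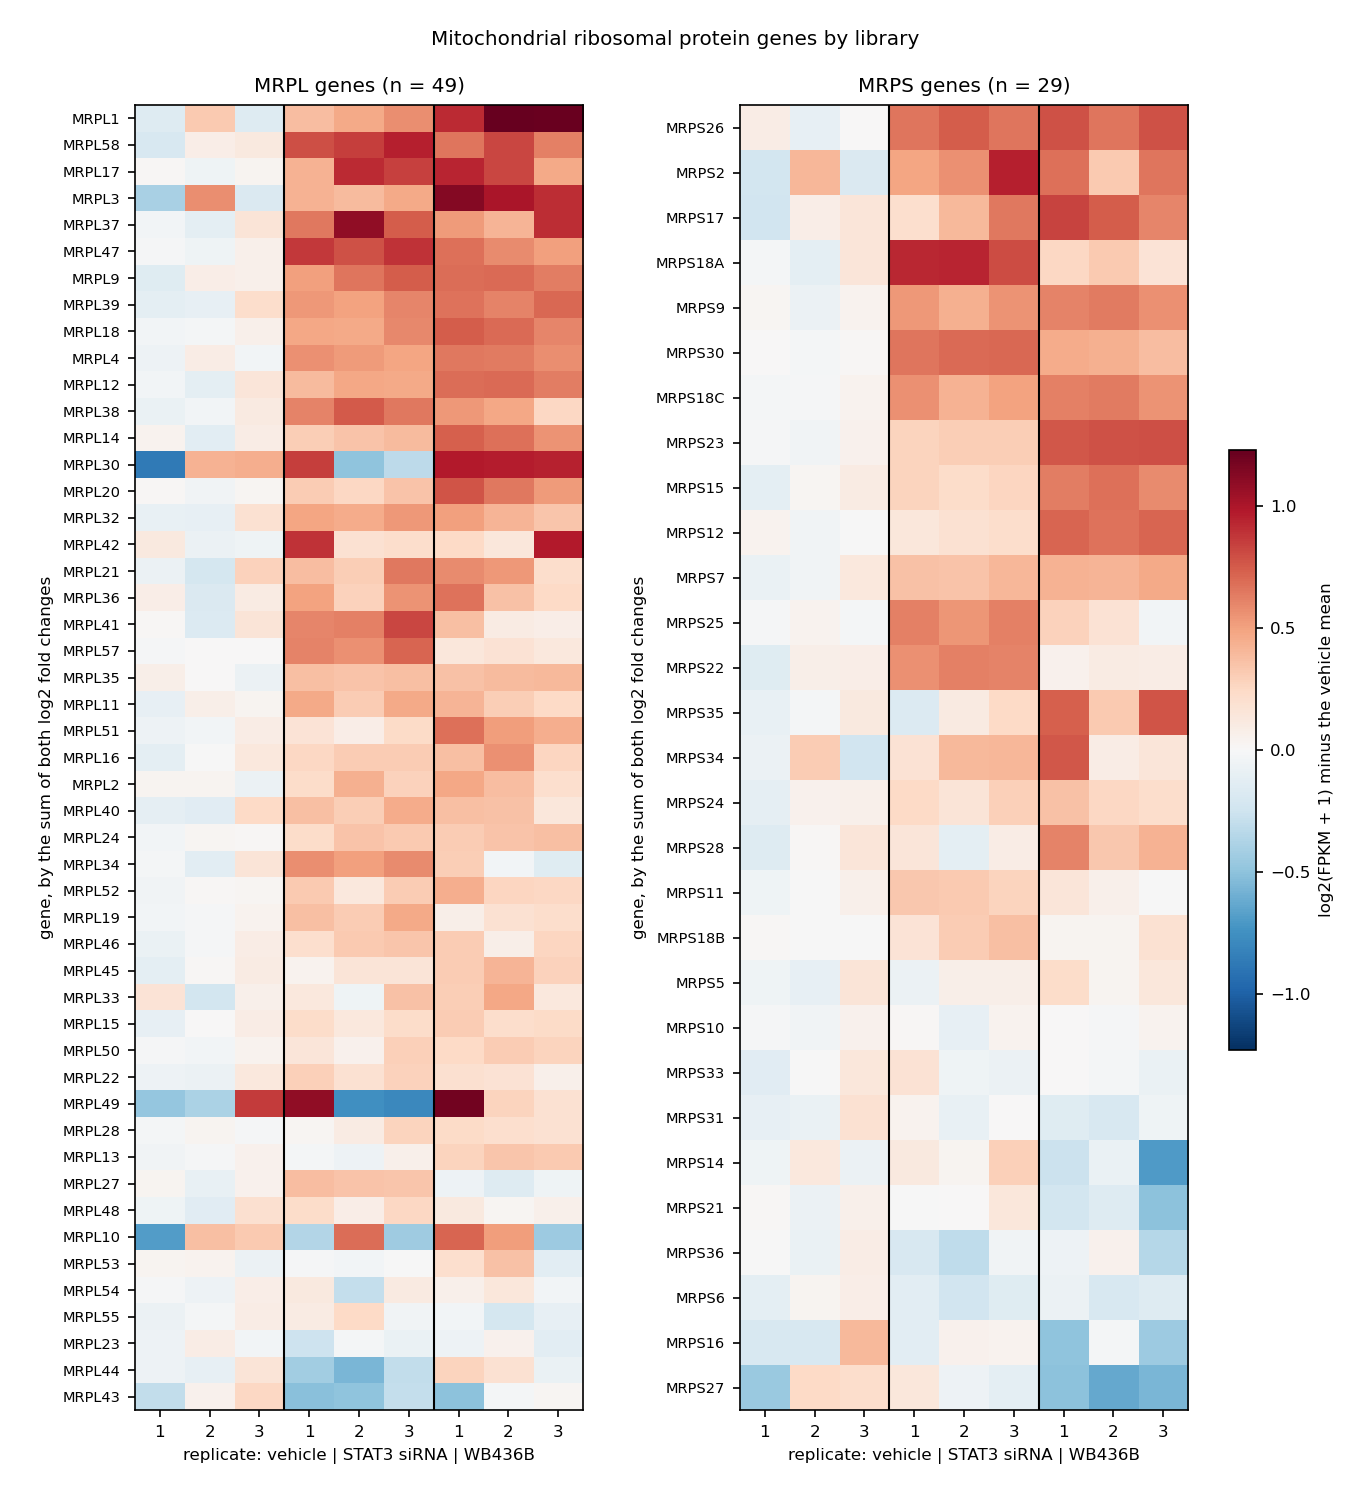
Each cell is 1 gene in 1 library, coloured by log2(FPKM + 1) minus the gene's vehicle mean (red higher, blue lower), with 49 MRPL genes on the left and 29 MRPS genes on the right and vertical lines between the 3 groups of 3 libraries. Most rows are red in all 6 treated libraries, while a few such as MRPL49, MRPL10 and MRPL30 change colour between libraries of 1 group.

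Among large-subunit genes classed here as having bacterial counterparts, 22 of 30 rose after siRNA (73.3%, against 29.8% of all tested genes) and 22 of 30 under WB436B (73.3%, against 24.9%). None fell in either, where 22.3% and 41.1% of all tested genes fell. MRPL47, which sits beside the tunnel where the new chain leaves the ribosome, measured 17.1, 16.7 and 18.1 FPKM with vehicle, 32.4, 30.5 and 32.9 FPKM after STAT3 siRNA and 28.2, 26.4 and 25.02 FPKM under WB436B. All 6 treated libraries were above vehicle, and the siRNA libraries were the highest. Its log2 fold change was 0.85 ± 0.056 (SE, adjusted p = 7.7e-06) after siRNA and 0.59 ± 0.056 (adjusted p = 2.6e-05) under WB436B. MRPL17, another protein near the tunnel exit, measured 7.79, 7.38 and 7.88 FPKM with vehicle, 10.7, 15.4 and 14.5 FPKM after STAT3 siRNA and 15.7, 14.3 and 11.02 FPKM under WB436B. It rose by 0.73 (adjusted p = 0.0035) and 0.74 (adjusted p = 0.0021), with both treated groups overlapping each other.

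MRPL1, the protein of the mobile stalk on the side where spent tRNA leaves, had the largest log2 fold change of the 78 genes under WB436B. It measured 5.58, 8.19 and 5.58 FPKM with vehicle, 8.598, 9.14 and 9.93 FPKM after STAT3 siRNA and 12.9, 16.2 and 16.1 FPKM under WB436B. The 3 groups did not overlap and stood in the order vehicle, siRNA, WB436B. Under WB436B the log2 fold change was 1.12 ± 0.14 (SE, adjusted p = 0.00014). After siRNA it was 0.47 ± 0.14 (adjusted p = 0.022), a call that was lost without vehicle replicate 1 (adjusted p = 0.072), vehicle replicate 3 (0.07), siRNA replicate 2 (0.051) or siRNA replicate 3 (0.069), and with no filter on low values (0.058).

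MRPL3, a core protein close to the site of peptide bond formation, measured 16.4, 32.95 and 19.2 FPKM with vehicle, 29.8, 28.9 and 30.5 FPKM after STAT3 siRNA and 49.04, 44.9 and 41.9 FPKM under WB436B. Vehicle replicate 2 was above all 3 siRNA libraries, and the WB436B libraries were above all others. On the log2 scale it rose under WB436B by 1.01 ± 0.21 (SE, adjusted p = 0.0027). The value after siRNA was 0.43 ± 0.21 (adjusted p = 0.12), and without vehicle replicate 2 its adjusted p was 0.00053.

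The stalk that recruits translation factors is built from MRPL12 on MRPL10, with MRPL11 at its base. MRPL12 measured 43.8, 41.3 and 49.8 FPKM with vehicle, 58.9, 62.7 and 62.3 FPKM after STAT3 siRNA and 72.8, 73.2 and 69.6 FPKM under WB436B. Its groups did not overlap, and it rose by 0.44 ± 0.067 (SE, adjusted p = 0.00072) after siRNA and 0.67 ± 0.067 (adjusted p = 3.5e-05) under WB436B. MRPL11 measured 10.3, 11.8 and 11.4 FPKM with vehicle, 15.7, 14.1 and 15.8 FPKM after STAT3 siRNA and 15.2, 13.96 and 13.4 FPKM under WB436B, and rose by 0.41 (adjusted p = 0.0014) and 0.32 (adjusted p = 0.0037). MRPL10 measured 4.22, 9.87 and 9.53 FPKM with vehicle, 5.58, 12.6 and 5.22 FPKM after STAT3 siRNA and 12.8, 11.02 and 5.16 FPKM under WB436B. Its libraries differed within every group, and its log2 fold changes were -0.03 ± 0.43 (adjusted p = 0.95) and 0.26 ± 0.43 (adjusted p = 0.62), with no call.

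MRPL18, a protein of the central protuberance at the top of the large subunit, measured 31.3, 31.4 and 33.6 FPKM with vehicle, 45.04, 44.8 and 48.8 FPKM after STAT3 siRNA and 54.4, 52.5 and 49.2 FPKM under WB436B. All 6 treated libraries were above vehicle, with log2 fold changes of 0.51 ± 0.055 (SE, adjusted p = 0.0001) and 0.68 ± 0.055 (adjusted p = 9.3e-06). MRPL9 measured 8.02, 9.64 and 9.498 FPKM with vehicle, 13.2, 14.8 and 15.8 FPKM after STAT3 siRNA and 15.1, 15.3 and 14.5 FPKM under WB436B and rose by 0.64 (adjusted p = 0.00028) and 0.67 (adjusted p = 0.00011). MRPL4, a tunnel-wall protein, measured 6.67, 7.52 and 6.83 FPKM with vehicle, 10.8, 10.5 and 10.2 FPKM after STAT3 siRNA and 11.5, 11.5 and 10.9 FPKM under WB436B and rose by 0.52 (adjusted p = 7.7e-05) and 0.62 (adjusted p = 1.4e-05).

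Of the 21 large-subunit genes classed here as mitochondria-specific, 11 rose (52.4%, against 29.8% of all tested genes) and 1 fell (4.76%, against 22.3%) after siRNA. Under WB436B 13 rose (61.9%, against 24.9%) and none fell, where 41.1% of all tested genes fell. The class does not describe descent: MRPS18A, and MRPS18B in the matching small-subunit class, descend from a bacterial gene. The 21 genes include MRPS18A and MRPS30, whose proteins structures place in the large subunit despite their symbols. MRPS18A measured 18.3, 17.1 and 20.8 FPKM with vehicle, 36.2, 36.6 and 33.2 FPKM after STAT3 siRNA and 22.4, 23.5 and 21.1 FPKM under WB436B. The siRNA libraries stood far above the other 6, and the WB436B libraries lay just above vehicle. Its log2 fold change after siRNA, 0.89 ± 0.076 (SE, adjusted p = 3.1e-05), was the largest of the 78 genes in that comparison. Under WB436B it was 0.25 ± 0.076 (adjusted p = 0.019), and that call was lost without vehicle replicate 1 (adjusted p = 0.054), vehicle replicate 2 (0.066) or WB436B replicate 2 (0.067). Quantile normalization lowered it to 0.16, with no call (adjusted p = 0.11). MRPS30 measured 8.72, 8.51 and 8.79 FPKM with vehicle, 14.3, 14.7 and 14.8 FPKM after STAT3 siRNA and 12.3, 12.1 and 11.6 FPKM under WB436B, with no overlap between any 2 groups, and rose by 0.69 (adjusted p = 3.9e-06) and 0.42 (adjusted p = 2.5e-05).

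MRPL58, also known as ICT1, is a built-in hydrolase that frees peptides from stalled ribosomes. It measured 9.95, 12.3 and 12.7 FPKM with vehicle, 20.8, 21.7 and 23.4 FPKM after STAT3 siRNA and 18.9, 21.2 and 18.3 FPKM under WB436B, and all treated libraries were above all vehicle libraries. The log2 fold changes were 0.87 ± 0.094 (SE, adjusted p = 0.00011) and 0.70 ± 0.094 (adjusted p = 0.00021). MRPL37 measured 29.6, 27.8 and 34.05 FPKM with vehicle, 48.03, 65.95 and 51.5 FPKM after STAT3 siRNA and 43.99, 40.9 and 57.7 FPKM under WB436B and rose by 0.83 (adjusted p = 0.0022) and 0.61 (adjusted p = 0.0073), with overlapping treated groups. MRPL39 measured 14.1, 14.3 and 18.1 FPKM with vehicle, 22.7, 22.1 and 23.8 FPKM after STAT3 siRNA and 25.1, 23.98 and 25.7 FPKM under WB436B and rose by 0.54 (adjusted p = 0.001) and 0.66 (adjusted p = 0.00019).

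MRPL51, the gene with the highest FPKM in vehicle, measured 52.3, 53.4 and 58.02 FPKM with vehicle, 61.6, 57.8 and 64.4 FPKM after STAT3 siRNA and 87.7, 78.4 and 74.8 FPKM under WB436B. The WB436B libraries were above all others, while 1 siRNA library lay below the highest vehicle library. It rose under WB436B by 0.55 ± 0.071 (SE, adjusted p = 0.00016), and the siRNA value was 0.16 ± 0.071 (adjusted p = 0.084). The siRNA value passed under quantile normalization (adjusted p = 0.024) and without WB436B replicate 1 (0.049). MRPL44, an RNase III-related protein of the large subunit, was the only one of the 78 genes called lower after siRNA. It measured 13.98, 13.6 and 16.4 FPKM with vehicle, 10.6, 9.56 and 11.6 FPKM after STAT3 siRNA and 17.9, 16.7 and 13.8 FPKM under WB436B. All siRNA libraries were below all others, and the WB436B libraries overlapped vehicle. The log2 fold change was -0.43 ± 0.11 (SE, adjusted p = 0.011) after siRNA and 0.13 ± 0.11 (adjusted p = 0.34) under WB436B.

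**Figure D2:**
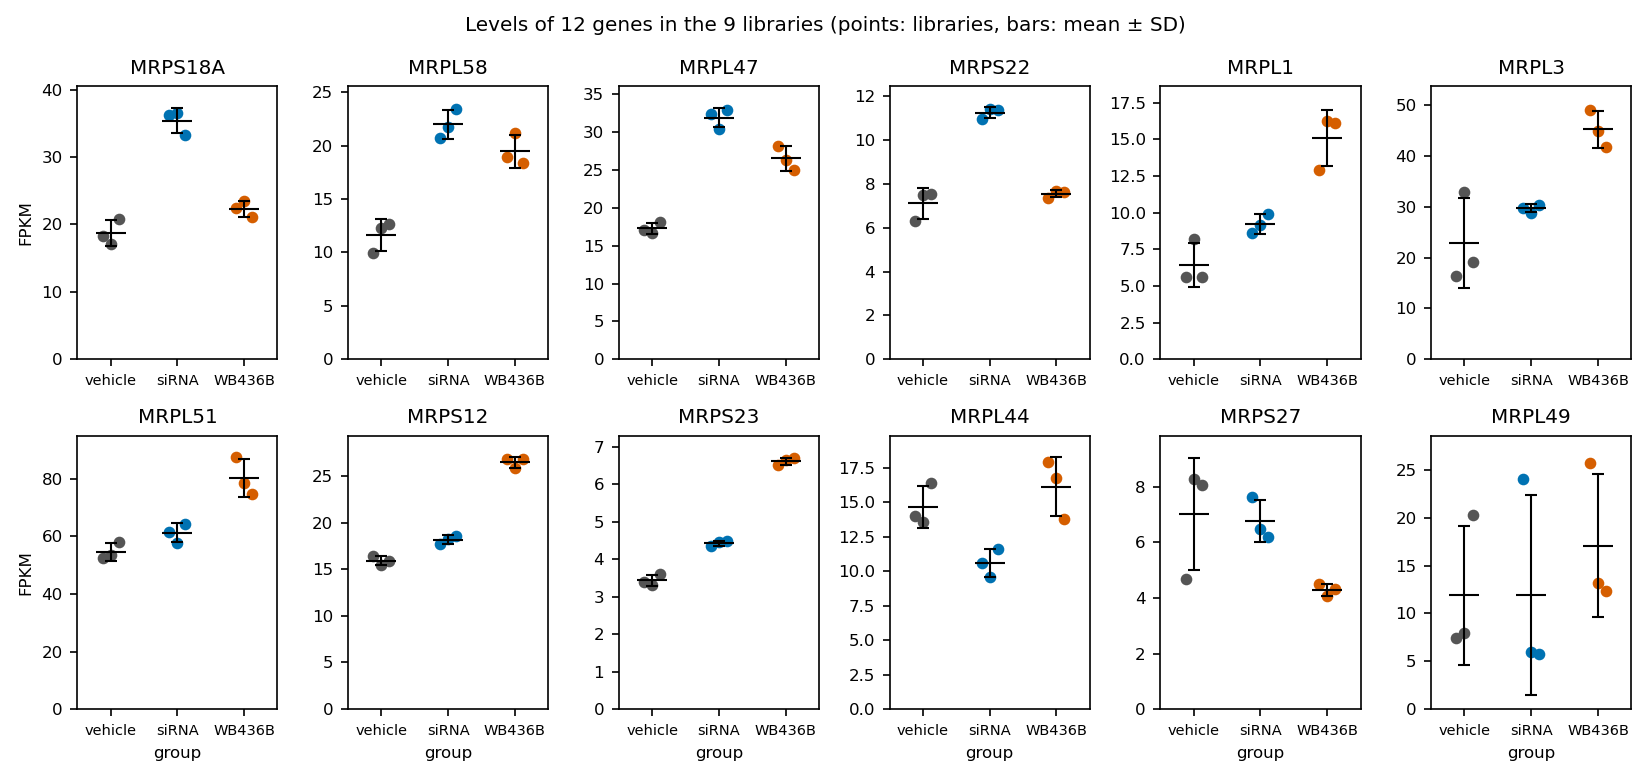
FPKM of 12 genes in vehicle, STAT3 siRNA and WB436B libraries, with 1 point per library and bars for the mean ± SD of 3 libraries, each axis starting at 0. MRPS18A, MRPL58, MRPL47 and MRPS22 had their highest mean after siRNA, MRPL1, MRPL3, MRPL51, MRPS12 and MRPS23 under WB436B, MRPL44 lowest after siRNA, MRPS27 lowest under WB436B, and MRPL49 spread from 5.78 to 25.7 FPKM without regard to group.

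In the small subunit, 9 of 16 genes classed here as having bacterial counterparts rose after siRNA (56.2%, against 29.8% of all tested genes) and none fell. Under WB436B 9 rose (56.2%, against 24.9%) and 1 fell (6.25%, against 41.1%). MRPS12, a protein of the decoding centre, measured 16.4, 15.5 and 15.9 FPKM with vehicle, 17.7, 18.2 and 18.6 FPKM after STAT3 siRNA and 26.9, 25.8 and 26.8 FPKM under WB436B. None of its 3 groups overlapped another, and the WB436B libraries were highest, at log2 fold changes of 0.18 ± 0.041 (SE, adjusted p = 0.0061) and 0.70 ± 0.041 (adjusted p = 1.5e-06). Under median-of-ratios scaling the siRNA call for MRPS12 was lost (adjusted p = 0.059). MRPS15, whose bacterial counterpart binds the rRNA early in assembly, measured 11.8, 13.2 and 13.9 FPKM with vehicle, 15.9, 15.3 and 15.8 FPKM after STAT3 siRNA and 20.5, 21.3 and 19.8 FPKM under WB436B and rose by 0.26 (adjusted p = 0.0073) and 0.63 (adjusted p = 2.7e-05). MRPS9, of the small subunit head, measured 13.4, 12.5 and 13.6 FPKM with vehicle, 19.6, 18.3 and 19.8 FPKM after STAT3 siRNA and 20.7, 21.1 and 19.9 FPKM under WB436B and rose by 0.51 (adjusted p = 6.2e-05) and 0.60 (adjusted p = 1.1e-05).

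MRPS17 measured 6.08, 7.81 and 8.196 FPKM with vehicle, 8.62, 9.98 and 12.1 FPKM after STAT3 siRNA and 13.8, 12.9 and 11.6 FPKM under WB436B. All treated libraries were above vehicle, with log2 fold changes of 0.42 ± 0.13 (SE, adjusted p = 0.027) and 0.73 ± 0.13 (adjusted p = 0.0013). The siRNA call was lost without vehicle replicate 1 (adjusted p = 0.084), siRNA replicate 2 (0.059) or siRNA replicate 3 (0.086), and with no filter on low values (0.071). MRPS21 was 1 of the 2 genes called lower under WB436B. It measured 22.1, 20.7 and 23.00 FPKM with vehicle, 21.9, 21.9 and 24.2 FPKM after STAT3 siRNA and 18.6, 19.6 and 15.2 FPKM under WB436B, with a log2 fold change under WB436B of -0.30 ± 0.091 (SE, adjusted p = 0.019), and the call was lost without vehicle replicate 3 (adjusted p = 0.059) and under median-of-ratios scaling (adjusted p = 0.21).

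Of the 10 small-subunit genes classed here as mitochondria-specific, 5 rose after siRNA (50%, against 29.8% of all tested genes) and none fell. Under WB436B 3 rose (30%, against 24.9%) and 1 fell (10%, against 41.1%). MRPS23 measured 3.39, 3.31 and 3.600 FPKM with vehicle, 4.35, 4.45 and 4.48 FPKM after STAT3 siRNA and 6.501, 6.63 and 6.69 FPKM under WB436B. The groups were far apart for their spread, at log2 fold changes of 0.29 ± 0.046 (SE, adjusted p = 0.00083) and 0.78 ± 0.046 (adjusted p = 1.5e-06). MRPS26 measured 28.2, 24.5 and 26.5 FPKM with vehicle, 42.1, 44.7 and 42.1 FPKM after STAT3 siRNA and 46.2, 42.1 and 46.1 FPKM under WB436B and rose by 0.68 (adjusted p = 3.9e-05) and 0.74 (adjusted p = 1.1e-05), with overlapping treated groups. MRPS22 measured 6.305, 7.48 and 7.56 FPKM with vehicle, 10.9, 11.4 and 11.4 FPKM after STAT3 siRNA and 7.38, 7.69 and 7.61 FPKM under WB436B. Its siRNA libraries stood above all others and its WB436B libraries overlapped vehicle, at log2 fold changes of 0.60 ± 0.065 (SE, adjusted p = 0.00012) after siRNA and 0.08 ± 0.065 (adjusted p = 0.31) under WB436B. The WB436B value of MRPS22 depended on scaling: it was 0.22 and called under median-of-ratios scaling (adjusted p = 0.0099) and 0.17 and called under quantile normalization (0.035).

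MRPS27, a protein with pentatricopeptide repeats, a fold that binds RNA, measured 4.69, 8.29 and 8.06 FPKM with vehicle, 7.62, 6.48 and 6.21 FPKM after STAT3 siRNA and 4.497, 4.07 and 4.31 FPKM under WB436B. Vehicle replicate 1 lay apart from the other vehicle libraries and close to the WB436B libraries. The WB436B log2 fold change was -0.56 ± 0.17 (SE, adjusted p = 0.02), and the call was lost without vehicle replicate 2 (adjusted p = 0.068), vehicle replicate 3 (0.067) or WB436B replicate 2 (0.056). It was also lost under median-of-ratios scaling (adjusted p = 0.051), quantile normalization (0.074) and, just over the threshold, with no filter on low values (0.05). MRPS34 measured 38.2, 50.3 and 34.01 FPKM with vehicle, 45.8, 53.3 and 53.8 FPKM after STAT3 siRNA and 68.99, 42.9 and 44.8 FPKM under WB436B and passed in neither comparison (adjusted p = 0.19 and 0.17). MRPS36, which carries a ribosomal symbol but is known as a component of the 2-oxoglutarate dehydrogenase complex, measured 7.08, 6.62 and 7.602 FPKM with vehicle, 6.08, 5.51 and 6.86 FPKM after STAT3 siRNA and 6.74, 7.401 and 5.33 FPKM under WB436B and passed in neither (adjusted p = 0.21 and 0.37).

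The 3 MRPS18 paralogs, descendants of 1 bacterial gene whose products sit at different places on the ribosome, are given side by side. MRPS18A is described above. MRPS18B measured 28.6, 28.2 and 28.1 FPKM with vehicle, 31.99, 35.4 and 36.9 FPKM after STAT3 siRNA and 29.1, 28.9 and 32.3 FPKM under WB436B, with log2 fold changes of 0.28 ± 0.063 (SE, adjusted p = 0.0052) and 0.08 ± 0.063 (adjusted p = 0.26). Under median-of-ratios scaling its WB436B value was 0.24 and called (adjusted p = 0.0072). MRPS18C measured 4.902, 4.96 and 5.17 FPKM with vehicle, 7.899, 7.06 and 7.46 FPKM after STAT3 siRNA and 8.23, 8.34 and 7.800 FPKM under WB436B, with 0.49 ± 0.052 (adjusted p = 1.0e-04) and 0.60 ± 0.052 (adjusted p = 1.5e-05). In the direct contrast of WB436B with siRNA, MRPS18A was lower (-0.64 ± 0.076, adjusted p = 0.00012), MRPS18B was lower (-0.20 ± 0.063, adjusted p = 0.021) and MRPS18C was not called (0.11 ± 0.052, adjusted p = 0.1). The MRPS18C difference was called higher under median-of-ratios scaling (0.315, adjusted p = 0.00094) and quantile normalization (0.216, adjusted p = 0.0097). The MRPS18B difference turned to 0.03 under median-of-ratios scaling (adjusted p = 0.71), and its call was lost without siRNA replicate 2 (0.06), siRNA replicate 3 (0.074), WB436B replicate 1 (0.067) or WB436B replicate 2 (0.073). The differences among the paralogs themselves were not tested.

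The direct contrast tests, gene by gene, whether the 2 treatments differed. Of the 78 genes, 15 were higher and 16 lower under WB436B than after siRNA, against 20.0% and 44.1% of all tested genes. The median difference was 0.04 on the log2 scale for the 78 genes and -0.19 for all tested genes. This split depends on how libraries are scaled: median-of-ratios scaling, which brings the median of all tested genes from -0.19 to -0.0023, gave 40 higher and 5 lower, with 31.5% and 30.7% of all genes called higher and lower. Quantile normalization, with a median of all genes of -0.0044, gave 15 and 12.

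Higher under WB436B than after siRNA were MRPL1 (0.65 ± 0.14, SE, adjusted p = 0.0036), MRPS12 (0.52 ± 0.041, adjusted p = 1.1e-05), MRPS23 (0.49 ± 0.046, adjusted p = 2.9e-05) and MRPL51 (0.38 ± 0.071, adjusted p = 0.0014). MRPL44, lower after siRNA, was higher by 0.56 ± 0.11 (adjusted p = 0.0022). MRPS35 measured 28.8, 30.3 and 33.5 FPKM with vehicle, 27.4, 33.4 and 36.6 FPKM after STAT3 siRNA and 52.1, 38.7 and 53.2 FPKM under WB436B and was higher by 0.55 ± 0.14 (adjusted p = 0.0086). MRPS28 measured 6.09, 6.96 and 7.74 FPKM with vehicle, 7.77, 6.296 and 7.45 FPKM after STAT3 siRNA and 11.1, 8.95 and 9.65 FPKM under WB436B, a difference of 0.42 ± 0.11 (adjusted p = 0.0085). MRPL3 was higher by 0.59 ± 0.21 (adjusted p = 0.036), but leaving out any 1 siRNA or WB436B library ended the call, with adjusted p from 0.056 without WB436B replicate 3 to 0.1 without WB436B replicate 1, as did quantile normalization (0.11) and using no filter on low values (0.09). The MRPL12 call (0.23, adjusted p = 0.016) was lost without siRNA replicate 1 (0.057) or WB436B replicate 2 (0.051), and under quantile normalization the difference was 0.06 (adjusted p = 0.4).

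The 16 genes lower under WB436B than after siRNA came from both subunits. MRPL57 measured 3.97, 4.05 and 4.04 FPKM with vehicle, 6.65, 6.404 and 7.26 FPKM after STAT3 siRNA and 4.54, 4.66 and 4.504 FPKM under WB436B, a difference of -0.48 ± 0.052 (SE, adjusted p = 6.8e-05). MRPL41 measured 31.2, 27.5 and 34.6 FPKM with vehicle, 47.4, 48.3 and 55.4 FPKM after STAT3 siRNA and 40.3, 33.3 and 32.8 FPKM under WB436B, a difference of -0.50 ± 0.11 (adjusted p = 0.0036). MRPL34 measured 6.42, 5.92 and 7.42 FPKM with vehicle, 10.2, 9.75 and 10.3 FPKM after STAT3 siRNA and 8.32, 6.39 and 5.84 FPKM under WB436B, a difference of -0.51 ± 0.12 (adjusted p = 0.0047). In each of these genes the siRNA libraries were above all 6 others. MRPL27, whose bacterial counterpart reaches towards the catalytic centre, measured 5.02, 4.53 and 5.09 FPKM with vehicle, 6.65, 6.48 and 6.44 FPKM after STAT3 siRNA and 4.62, 4.25 and 4.68 FPKM under WB436B, a difference of -0.45 ± 0.056 (adjusted p = 0.00015), and MRPS25 measured 5.28, 5.53 and 5.23 FPKM with vehicle, 8.77, 8.26 and 8.76 FPKM after STAT3 siRNA and 6.74, 6.16 and 5.19 FPKM under WB436B, a difference of -0.45 ± 0.079 (adjusted p = 0.001). MRPS22 differed by -0.52 ± 0.065 (adjusted p = 0.00016), and MRPL47 by -0.26 ± 0.056 (adjusted p = 0.0035). Under median-of-ratios scaling the calls for MRPL34, MRPL41, MRPL47 and MRPS30 were lost (adjusted p = 0.055, 0.063, 0.65 and 0.37), while those for MRPS18A (0.0018), MRPS22 (0.0022) and MRPL57 (0.0015) held.

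**Figure D3:**
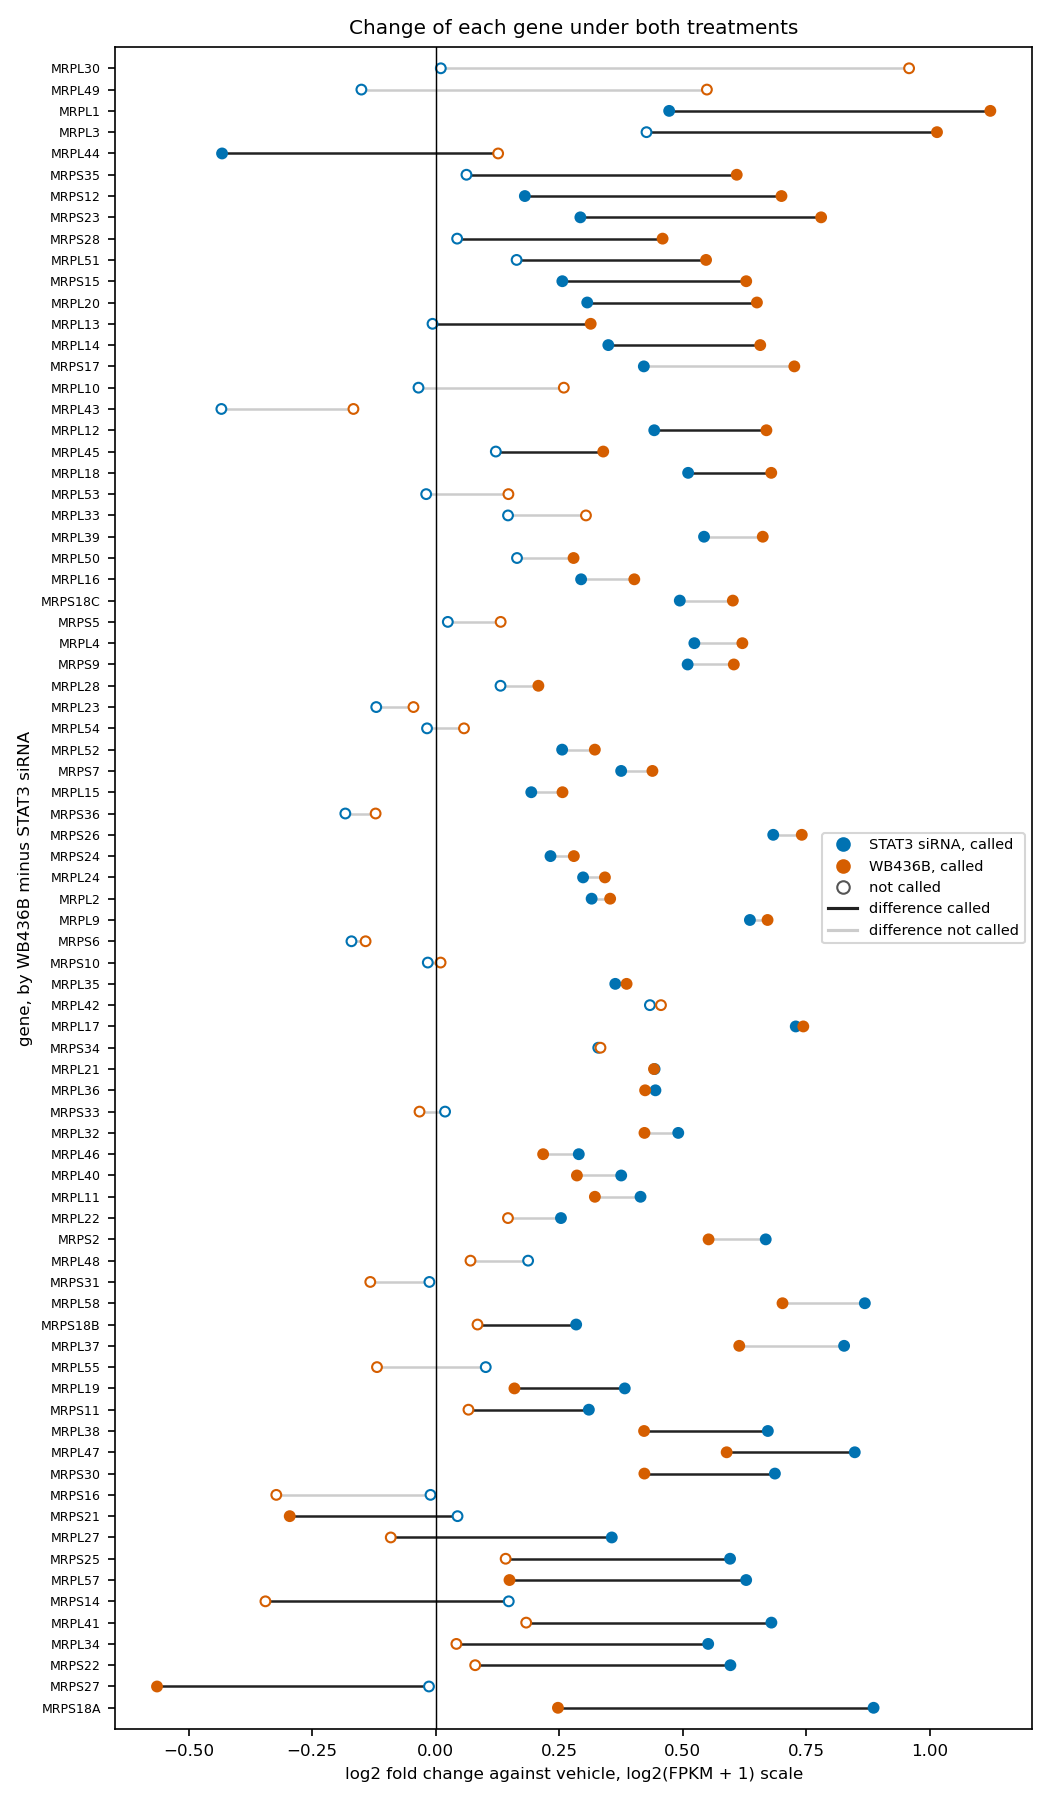
Each of the 78 genes on 1 row, with its log2 fold change against vehicle after STAT3 siRNA (blue) and under WB436B (orange), filled where adjusted p is below 0.05, and a dark line where the direct contrast of both treatments was called. Rows are ordered by that contrast, from MRPL30 at the top, whose difference was not called, to MRPS18A at the bottom, and most points lie to the right of 0.

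The MRPL and MRPS families were compared side by side, as a description with no test, since genes are not replicates. After siRNA, 31 of 49 MRPL genes rose (63.3%) and 1 fell (median log2 fold change 0.35), and 16 of 29 MRPS genes rose (55.2%) and none fell (median 0.26). Of all tested genes 29.8% rose and 22.3% fell. Under WB436B, 33 MRPL genes rose (67.3%) and none fell (median 0.34), and 14 MRPS genes rose (48.3%) and 2 fell (6.9%, median 0.25). Of all tested genes 24.9% rose and 41.1% fell. In the direct contrast 10 MRPL genes were higher (20.4%) and 7 lower (14.3%), and 5 MRPS genes were higher (17.2%) and 9 lower (31%). Of all tested genes 20.0% were higher and 44.1% lower. On the FPKM as deposited, the shares higher thus lay near the background in both families, and the shares lower lay below it. Median-of-ratios scaling moved the median differences to 0.27 for MRPL and 0.24 for MRPS genes. With it, 40 genes of both families together were higher and 5 lower, where 31.5% of all tested genes were higher and 30.7% lower. Quantile normalization gave 15 higher and 12 lower, against 28.1% of all tested genes in each direction. Shares per family under these scalings are not given. Sorted by structure instead of symbol, the large subunit had 33 of 51 genes higher (64.7%) and 1 lower after siRNA, and 35 higher (68.6%) under WB436B. The small subunit then had 14 of 26 genes higher (53.8%) after siRNA, and 12 higher (46.2%) and 2 lower (7.69%) under WB436B.

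Per library, the mean log2(FPKM + 1) of the 49 MRPL genes was above the vehicle mean by 0.33, 0.28 and 0.34 after siRNA and by 0.44, 0.40 and 0.32 under WB436B. For the 29 MRPS genes the shifts were 0.25, 0.24 and 0.32 after siRNA and 0.28, 0.22 and 0.19 under WB436B. Over all tested genes the corresponding means were 0.02 after siRNA and -0.15 under WB436B. The mean of MRPL minus that of MRPS was -0.04, -0.06 and -0.0024 with vehicle, 0.05, 0.0042 and -0.01 after siRNA and 0.13, 0.14 and 0.10 under WB436B. The 3 WB436B libraries had the highest values of this difference, and the siRNA and vehicle libraries overlapped. The ratio of summed FPKM, MRPL over MRPS, was 1.66, 1.63 and 1.77 with vehicle, 1.82, 1.75 and 1.73 after siRNA and 1.86, 1.97 and 1.82 under WB436B.

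**Figure D4:**
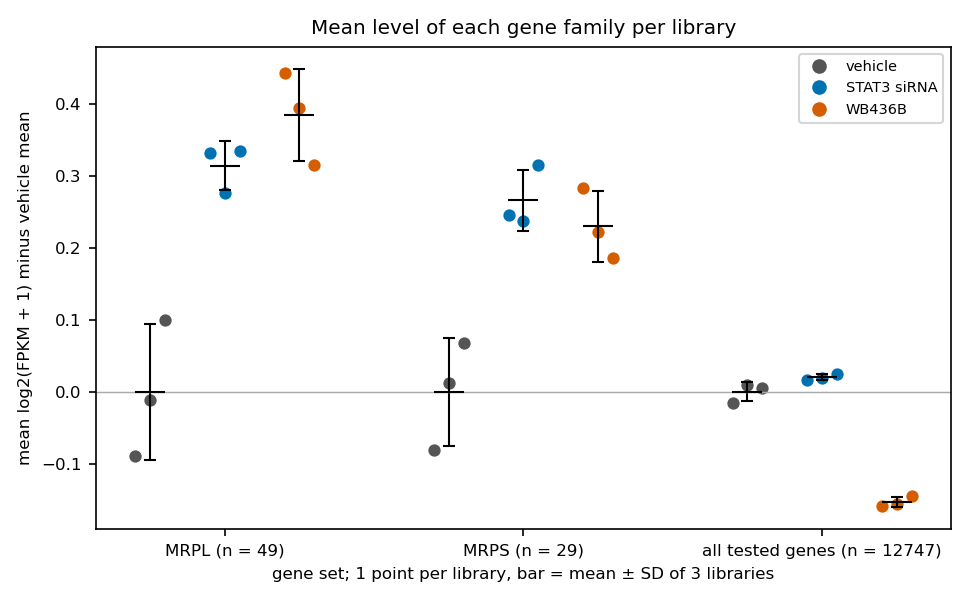
Mean log2(FPKM + 1) of 49 MRPL genes, 29 MRPS genes and all 12747 tested genes in each library, minus the vehicle mean, with 1 point per library and bars for the mean ± SD of 3 libraries. Both families lie above vehicle in all 6 treated libraries, whereas all tested genes together sit near 0.02 after siRNA and near -0.15 under WB436B.

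Of the 78 genes, 19 were called in none of the 3 comparisons, a description with no matching share of all tested genes. Some of these varied among replicates: in 11 of the 78 genes (14.1%) the highest library of some group exceeded the lowest by over 1.5-fold, as in 18.1% of the 9235 tested genes in the same range of mean FPKM. MRPL49 measured 7.45, 7.99 and 20.3 FPKM with vehicle, 24.03, 5.96 and 5.78 FPKM after STAT3 siRNA and 25.7, 13.2 and 12.4 FPKM under WB436B, so that in each group 1 library stood far above its other 2. MRPL30 measured 4.16, 11.6 and 11.8 FPKM with vehicle, 15.9, 5.68 and 6.54 FPKM after STAT3 siRNA and 17.5, 17.3 and 17.1 FPKM under WB436B. The WB436B libraries of MRPL30 were all above the rest, yet the log2 fold change of 0.96 ± 0.42 (SE) had an adjusted p of 0.073. It was called under median-of-ratios scaling (1.11, adjusted p = 0.042), without siRNA replicate 1 (0.033) and, just under the threshold, with only the groups compared (0.05). MRPL42, the lowest in FPKM in vehicle, measured 1.605, 1.29 and 1.32 FPKM with vehicle, 3.46, 1.74 and 1.79 FPKM after STAT3 siRNA and 1.85, 1.64 and 3.73 FPKM under WB436B, with log2 fold changes of 0.43 and 0.46 (adjusted p = 0.18 and 0.14), and quantile normalization gave 0.76 under WB436B, with a call (adjusted p = 0.022). MRPS14 measured 4.83, 5.601 and 4.75 FPKM with vehicle, 5.56, 5.195 and 6.41 FPKM after STAT3 siRNA and 4.05, 4.72 and 2.74 FPKM under WB436B and was called only in the direct contrast (-0.49 ± 0.15, adjusted p = 0.018), which was lost without siRNA replicate 3 (0.063), under median-of-ratios scaling (-0.30, adjusted p = 0.12) and under quantile normalization (-0.28, adjusted p = 0.13). Without WB436B replicate 2 it was called lower against vehicle as well (0.02). Among the 67 genes within 1.5-fold in every group, 46 rose and 1 fell after siRNA, and 45 rose and 1 fell under WB436B. These genes were picked by their small spread, which also enters the p-value, so a higher share of calls follows from the choice. The counts are a description, and no share for equally steady genes of the whole table is given.

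Reads in exons shared with another gene cannot be assigned without doubt, and how the counting treated strand is not given in the sources used here. In GENCODE release 29, 26 of the 78 genes shared at least 10% of their exon bases with another gene model, among them MRPL12 (68.2%), MRPS18A (47.0%, with RSPH9), MRPL38 (41.1%) and MRPL51 (31.3%, with NCAPD2). In the other 52, 31 rose after siRNA and none fell, where 29.8% of all tested genes rose and 22.3% fell. Under WB436B 31 of the 52 rose and 2 fell, where 24.9% of all tested genes rose and 41.1% fell. The share of genes higher was 59.6% in these 52 in each comparison and 61.5% in the 26.

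Several of the genes start head to head with a neighbour. In GENCODE release 29, 17 had a protein-coding gene beginning within 1000 bases on the opposite strand, and 13 of those neighbours were tested. Of these 13 neighbours, 6 rose (46.2%, against 29.8% of all tested genes) and none fell after siRNA. Under WB436B 4 rose (30.8%, against 24.9%) and 4 fell (30.8%, against 41.1%), with a median of 0.01, near the background. The 6 that rose after siRNA include MRPS11 and MRPL46, which are themselves among the 78 genes. Next to MRPL18 lies TCP1, a subunit of the cytosolic chaperonin, with log2 fold changes of 0.52 after siRNA and 1.08 under WB436B, both called. SKA3, a kinetochore protein gene beside MRPL57, rose by 0.94 and 1.24. MRPL46 and MRPS11 are each other's neighbour, 34 bases apart. MRPL46 measured 2.28, 2.42 and 2.696 FPKM with vehicle, 2.99, 3.32 and 3.38 FPKM after STAT3 siRNA and 3.29, 2.65 and 3.16 FPKM under WB436B and MRPS11 3.64, 3.82 and 4.02 FPKM with vehicle, 5.08, 5.03 and 4.85 FPKM after STAT3 siRNA and 4.35, 4.02 and 3.799 FPKM under WB436B, and both rose after siRNA (0.29 and 0.31). The siRNA call for MRPL46 was lost without vehicle replicate 1 (adjusted p = 0.053) or siRNA replicate 3 (0.052). MRPL47 rose under both treatments while its neighbour NDUFB5, a complex I subunit gene, was at 0.01 (not called) and fell by 0.50 under WB436B.

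Genes that work with the mitochondrial ribosome but carry other names were read from lists, against the 29.8% of all tested genes that rose after siRNA and the 24.9% that rose under WB436B. Of all tested genes, 22.3% fell after siRNA and 41.1% under WB436B. Of 5 subunit genes with other symbols, 3 rose after siRNA and 4 under WB436B, and none fell. GADD45GIP1, a large-subunit protein, measured 9.74, 8.96 and 8.74 FPKM with vehicle, 15.2, 17.7 and 18.7 FPKM after STAT3 siRNA and 15.3, 14.2 and 13.6 FPKM under WB436B, with log2 fold changes of 0.84 (adjusted p = 6.3e-05) and 0.60 (adjusted p = 0.00023). DAP3, a GTP-binding small-subunit protein, rose by 0.41 and 0.59, and AURKAIP1 by 0.43 and 0.48. PTCD3 rose under WB436B (0.39) and was at 0.12 after siRNA (adjusted p = 0.062). CHCHD1 passed in neither (0.20 and 0.04).

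Of 25 assembly factor genes, 15 rose (60%, against 29.8% of all tested genes) and 2 fell (8%, against 22.3%) after siRNA. Under WB436B 12 rose (48%, against 24.9%) and 2 fell (8%, against 41.1%). The medians were 0.29 and 0.29. DHX30, an RNA helicase of mitochondrial RNA granules, measured 7.398, 6.29 and 7.35 FPKM with vehicle, 9.45, 10.4 and 9.18 FPKM after STAT3 siRNA and 13.2, 12.8 and 14.1 FPKM under WB436B and rose by 0.42 (adjusted p = 0.0016) and 0.84 (adjusted p = 1.5e-05). NGRN, a factor needed for the large-subunit rRNA, rose by 0.74 and 0.21, and RBFA, a small-subunit maturation factor, by 0.62 and 0.39. FASTKD2 rose under WB436B (0.42) and was at 0.12 after siRNA (adjusted p = 0.073).

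Of 18 tested genes for translation factors and mRNA handling, 10 rose (55.6%, against 29.8% of all tested genes) and 1 fell (5.56%, against 22.3%) after siRNA. Under WB436B 9 rose (50%, against 24.9%) and 2 fell (11.1%, against 41.1%). The medians were 0.21 and 0.21. SLIRP measured 8.59, 7.85 and 9.53 FPKM with vehicle, 18.2, 16.3 and 20.9 FPKM after STAT3 siRNA and 13.8, 13.7 and 12.1 FPKM under WB436B, and LRPPRC, its partner in keeping mitochondrial mRNAs stable, measured 16.3, 17.2 and 16.6 FPKM with vehicle, 28.5, 26.97 and 28.5 FPKM after STAT3 siRNA and 22.8, 24.7 and 24.1 FPKM under WB436B. Both rose in both comparisons, SLIRP by 1.01 and 0.56 and LRPPRC by 0.71 and 0.49. GATC, which helps charge the mitochondrial glutamine tRNA, rose by 0.62 and 0.54. GUF1, an elongation factor relative, rose under WB436B (0.51) and was at 0.12 after siRNA (adjusted p = 0.087).

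Of 13 tested regulators of mitochondrial biogenesis and mitochondrial DNA expression, 6 rose (46.2%, against 29.8% of all tested genes) and 1 fell (7.69%, against 22.3%) after siRNA. Under WB436B 7 rose (53.8%, against 24.9%) and 2 fell (15.4%, against 41.1%). PPRC1, a coactivator, rose by 0.47 and 0.91, TFB2M, an initiation factor of the mitochondrial RNA polymerase, by 0.26 and 0.75, and TFAM, which packages mitochondrial DNA, by 0.41 and 0.58. PPARGC1B, another coactivator, measured 5.79, 5.31 and 5.103 FPKM with vehicle, 4.91, 4.79 and 4.63 FPKM after STAT3 siRNA and 1.300, 1.67 and 1.55 FPKM under WB436B. It fell under WB436B (-1.35 ± 0.07, SE, adjusted p = 8.2e-07) and was at -0.15 after siRNA (adjusted p = 0.11). MYC measured 2.94, 4.303 and 13.9 FPKM with vehicle, 10.5, 11.3 and 3.49 FPKM after STAT3 siRNA and 14.1, 13.1 and 14.8 FPKM under WB436B. Its vehicle and siRNA libraries overlapped over their whole range, and it was called in neither comparison (adjusted p = 0.61 and 0.082).

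Neither mitochondrial rRNA was called higher. The small-subunit rRNA MT-RNR1 was at -0.27 after siRNA and -0.21 under WB436B, with no call (adjusted p = 0.26 and 0.35). The large-subunit rRNA MT-RNR2 was at 0.05 after siRNA (adjusted p = 0.68) and fell under WB436B (-0.32 ± 0.1, SE, adjusted p = 0.021). Of the 13 mRNAs of mitochondrial DNA, 1 rose and 7 fell after siRNA, and 7 fell under WB436B and none rose. The share that fell was 53.8% in each comparison, against 22.3% of all tested genes after siRNA and 41.1% under WB436B, where it lay near the background. MT-CO2, a cytochrome oxidase subunit, was at -0.51 (adjusted p = 0.00021) and -0.31 (adjusted p = 0.002), and MT-CYB, the cytochrome b of complex III, at -0.48 (adjusted p = 0.00014) and -0.25 (adjusted p = 0.0031). How RNA without long poly(A) tails was captured is not given in the sources used here. Of 84 tested genes of the cytosolic ribosome, 43 rose (51.2%, against 29.8% of all tested genes) and 1 fell after siRNA (median 0.31). Under WB436B 26 rose (31.0%, close to the 24.9% of all tested genes) and none fell (median 0.16).

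**Figure D5:**
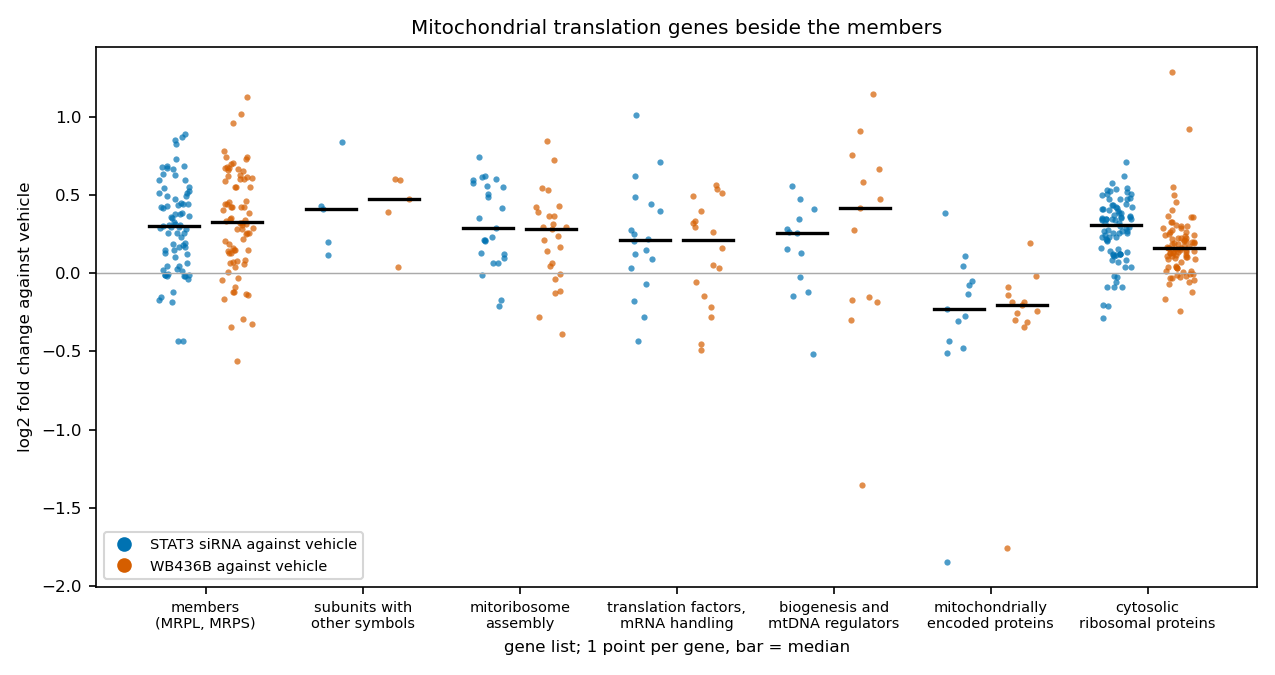
Log2 fold change against vehicle after STAT3 siRNA (blue) and under WB436B (orange), with 1 point per gene and a bar at each list's median, for the 78 mitochondrial ribosomal protein genes and 6 related lists. The medians of the 78 genes are 0.30 and 0.33, those of the mitochondrially encoded proteins -0.23 and -0.20, and those of the cytosolic ribosomal proteins 0.31 and 0.16.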

How the data were processed

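RNA was sequenced from 9 BxPC3 libraries, 3 per group. The authors deposited FPKM per gene, already normalized for library size and gene length. Per the submitters' processing notes, Bowtie 0.12.2 and the mouse build mm8 were named, although the deposited identifiers are human (96.5% of 60564 occur in GENCODE release 29). For the program behind the FPKM, its annotation and its use of strand, the status is: not given in the sources used here. No coordinates come from the deposited table. Promoter sequences are from RefSeq (GRCh38.p14).

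Genes reaching 1 FPKM in 3 or more of the 9 libraries were tested on log2(FPKM + 1) with limma 3.58.1 (trend, R 4.3.3), all 9 libraries in one model with 1 mean per group (6 residual degrees of freedom). The tests were two-sided with Benjamini-Hochberg adjustment over all 12747 genes, and a gene was called at adjusted p below 0.05. Log2(FPKM + 1) understates changes of low genes. Fold changes are given ± SE. The model was tested on simulated data. Depth was estimated from the steps of low FPKM in genes with 1 transcript: 1 FPKM corresponded to 14.9 to 47.2 fragments per kb. Intervals from counts were not computed, since counts are not in the table. No 2 libraries shared more than 5 identical values above 0.

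Members and lists were chosen with earlier results of these data known. Genes were named by a rule: up to 8 MRPL and 5 MRPS genes per direction with the largest called change and no overlap against vehicle, up to 4 of each per direction in the direct contrast, the 3 highest and 3 lowest in vehicle, and a fixed list of stalk, paralog and other proteins. The rule gave 39 genes. The subunit classes by structure, the head-to-head neighbours, the shared exons, the 1.5-fold spread and 15 further genes were added after values were seen. Alternatives were pseudocounts of 0.1 and 0.5, no filter, a filter of 5 FPKM, 2 scalings, only the groups compared, a replicate block, adjusted p below 0.01 and each library left out.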

Additional observations from a re-analysis of the deposited data

How the results depend on the processing

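Counts of genes called higher against vehicle stayed within 1.5-fold of 47 under every alternative run, from 34 to 48 after STAT3 siRNA and from 38 to 57 under WB436B. The share of all tested genes called higher moved too, from 29.8% after siRNA and 24.9% under WB436B. Under median-of-ratios scaling it was 24.3% after siRNA (40 of the 78 genes) and 33.1% under WB436B (57). Under quantile normalization it was 28.7% (48) and 32.4% (50). With each library left out in turn, the counts higher ranged from 36 to 48 after siRNA and from 40 to 47 under WB436B. The counts lower ranged from 1 to 4 (4 without vehicle replicate 1 and 2 without WB436B replicate 1) and from 0 to 3 (1 without vehicle replicate 2, 0 without vehicle replicate 3). In the direct contrast of WB436B with siRNA they were 11 to 17 higher and 14 to 16 lower. No share of all tested genes is given for the left-out libraries, the replicate block or adjusted p below 0.01. Changes in the counts at those settings therefore cannot be set against the whole table.

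After siRNA, 3 genes were lower under median-of-ratios scaling, 3 under quantile normalization, 2 with the replicate block and 0 at adjusted p below 0.01, against 1. Under WB436B the count was 1 with no filter, 0 with median-of-ratios scaling, 1 with quantile normalization and 0 at adjusted p below 0.01, against 2. In the direct contrast, median-of-ratios scaling gave 40 higher and 5 lower, and adjusted p below 0.01 gave 10 lower. That scaling moved the median of all tested genes from -0.13 to -0.00040 under WB436B and from -0.19 to -0.0023 in the direct contrast, and the family medians with it: MRPL 0.50 and MRPS 0.40 under WB436B, MRPL 0.27 and MRPS 0.24 in the direct contrast. The sign of the direct contrast turned for MRPS18B under median-of-ratios scaling (0.0278) and for MRPL18 under quantile normalization (-0.0283), with adjusted p of 0.71 and 0.62. For single named genes, over the settings that keep every library, 1348 values kept direction and call, 27 gained a call and 72 lost one. With a library left out, 1366 kept both, 14 gained a call and 78 lost one.

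Of the 9 correlations of same-numbered libraries' deviations from group means, 2 exceeded 0.1 (from -0.08 to 0.16), so by the rule used the numbers were not taken to pair the samples. Between vehicle and siRNA the 3 same-numbered correlations (0.04, 0.12 and 0.16) were the highest of the 9 between those groups. With the replicate block, 46 genes were higher after siRNA, 43 under WB436B and 15 in the direct contrast.

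The table holds no counts, so precision at low levels rests on 3 libraries a group, and any change in total RNA per cell is outside what FPKM can show. The cause of the shifts between scalings was not tested.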
